A study of Arabidopsis thaliana with 16 samples.

Results

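The salt response of cpc try root tips was described from 4 arrays of the 16 in the series: 2 replicates titled as cpc try on medium with 140 mM NaCl and 2 titled as cpc try on standard medium. All 22746 probe sets other than the Affymetrix controls were considered, and 17059 passed a filter on dim signals and were tested. The genotype was cpc-1 try-82 in the Columbia ecotype of Arabidopsis thaliana. Seedlings were 5 days old, all were moved to fresh medium, and after 1 hour the last 5 mm or so of each root was taken, with about 30 roots pooled per array. The same design was applied to the wild type (Columbia) and to the wer myb23 and scm mutants, 4 arrays each. The series title gives salt stress in hair patterning mutants as its subject. The entry for growth medium gives 4 days before transfer for all cpc try and scm arrays and 5 days for wild type and wer myb23, whereas every age entry and description gives 5 days. In the 3 mutants that entry also gives NaCl for the arrays titled as standard, while their titles and descriptions name standard medium. The titles were followed.

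CAPRICE (CPC) and TRIPTYCHON (TRY) are small MYB proteins without an activation domain. They move into the cells that will form root hairs and there act against the MYB and bHLH complex that specifies non-hair cells, so a root that lacks both makes few hairs. High salt outside the root withdraws water and adds sodium. The hormone abscisic acid then accumulates, and protective proteins such as the late embryogenesis abundant (LEA) proteins and dehydrins are made and growth of the root slows.

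TRY (AT5G53200), a gene the label gives as mutated, did not read lower in these arrays. Its signal was 751 and 870 on standard medium and 501 and 481 on salt in the arrays titled cpc try, against 47.8, 49.7, 15.6 and 9.98 in the wild type arrays. All 4 arrays labelled cpc try were above all 4 wild type arrays, so no loss of the transcript was seen with this probe set. The lesion of try-82 and its place relative to the probe set are not given in the labels, and CPC is not named in the probe annotation used here. Without CPC and the lesion, it is not known whether a lower TRY signal should be seen, and the TRY signal cannot decide whether the label holds. EXPA7 and AT1G30870, listed among the root hair genes, read far below wild type in the same arrays, with values given below. The genotype was not tested further, and cpc try below stands for the arrays labelled so. Within cpc try, TRY was at -0.72 ± 0.57 on the log2 scale on salt (SE, limma adjusted p = 0.53).

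Array quality was similar across the 4 arrays in scale but not in RNA integrity measures. Their median signals lay between 72.6 and 76.7. The ratio of 3′ to 5′ signal of the GAPDH control was 3.98 and 3.13 on standard medium, 6.92 in salt replicate 1 and 2.76 in salt replicate 2, and the other 12 arrays lay between 2.74 and 5.38. The 3′ to middle ratio of the actin control was 3.74 and 3.22 on standard medium, 6.84 in salt replicate 1 and 2.57 in salt replicate 2, beside 3.25 to 5.90 in the other 12 arrays. The 25S ribosomal RNA control read 4517 and 3180 on standard medium and 8256 and 8190 on salt, so the media did not overlap. Their part in the results was not tested. The log2 signals correlated with 0.931 between the standard replicates, 0.920 between the salt replicates and 0.903 to 0.912 across the media, over probe sets, which are not independent replicates.

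Salt changed 1639 of the 17059 tested probe sets (9.61%) in cpc try, 925 upward (5.42%) and 714 downward (4.19%), by limma with Benjamini-Hochberg adjustment at a threshold of 0.05. Centring each array on its median signal gave 821 upward and 828 downward. Rises were larger and started from lower levels than falls. The median rise was 1.31 on the log2 scale and took the median signal from 141 to 375, whereas the median fall was -1.05 and took it from 505 to 220. Among the rises, 660 reached a log2 change of 1, 223 reached 2 and 21 reached 4; among the falls the counts were 391, 91 and 2. On standard medium 89 of the rising probe sets (9.62%) lay under 21.7, the 25th percentile of all signals. The same held for 1158 of all 17059 tested probe sets (6.79%) and for 1 of the falling ones. A probe set at the floor has little room to fall, so that last count was limited beforehand. The median standard signal over all tested probe sets was 131, near that of the rises and below that of the falls. The median change over all tested probe sets was -0.003. Without standard replicate 2 the calls numbered 924. The median absolute difference between replicates was 0.283 on standard medium and 0.363 on salt, beside a median absolute change on salt of 0.345. Arrays of the media did not overlap in 47.3% of all tested probe sets and in 46.3% of the genes. Non-overlap held for all 925 rises and for 712 of the 714 falls. Where it is given for a called gene below, it describes the values and adds no support to the call. In pooled root tips, fewer cells of a type and less RNA per cell cannot be told apart, and this holds for every fall below.

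**Figure D1:**
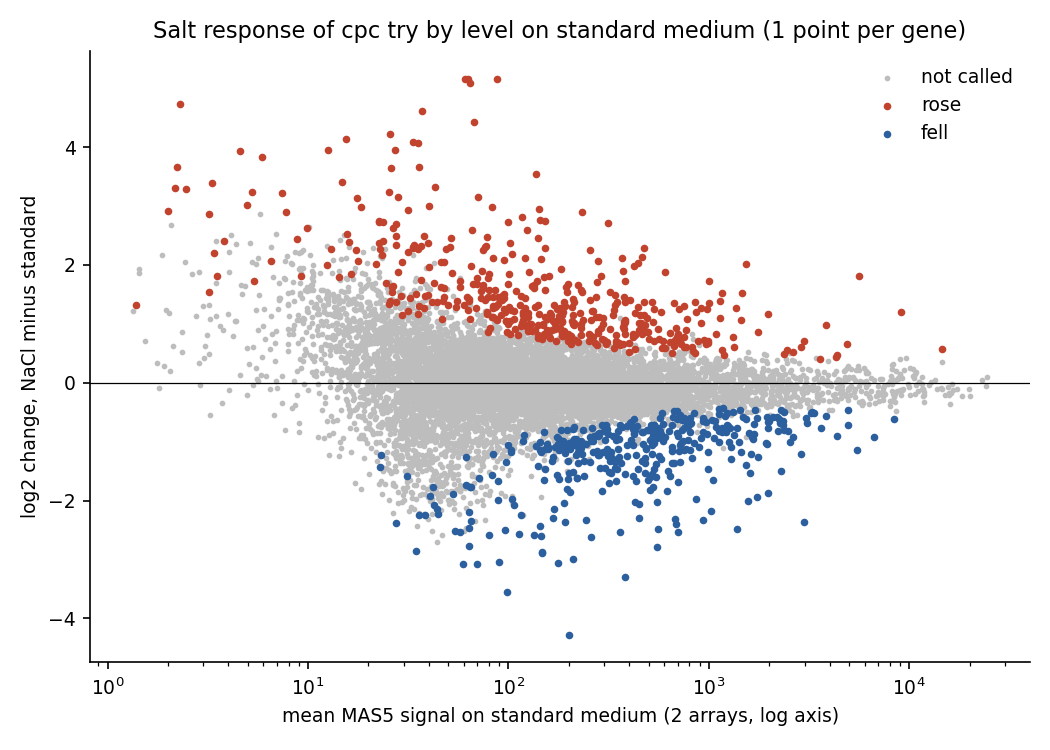
Log2 change on NaCl in cpc try (vertical axis) against the mean MAS5 signal of the 2 standard arrays (horizontal log axis), 1 point for each of the 9491 genes with a tested probe set. Of these 447 rose (red) and 366 fell (blue), and the falling genes lie mostly at higher standard signals than the rising ones.

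One gene was read from 1 probe set, the brightest tested, where the annotation gives a single gene. On this basis 9491 genes were tested, of which 813 were called (8.57%), with 447 rises (4.71%) and 366 falls (3.86%). Counts of gene groups below are read against these shares. Only 13513 of the 22746 probe sets had a single gene in the annotation, so a group holds only part of a family. None of the listed abscisic acid receptors, PP2C phosphatases, SnRK2 kinases, sodium transporters or aquaporins was among them, and nothing is said of these here.

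LEA proteins and dehydrins protect cells from drying. Among the LEA, dehydrin and cold-regulated genes, 7 of the 9 tested members rose and none fell, with a median log2 change of 2.93 over the 9. Without standard replicate 2 or without salt replicate 2 the count was 6. LEA4-5 (AT5G06760) read 89.1 and 87.0 on standard medium and 3205 and 3388 on salt, a 37.5-fold difference of the means. LEA18 (AT2G35300) went from 53.1 and 18.2 to 556 and 359, a log2 rise of 3.66 ± 0.43 (SE, limma adjusted p = 4.7e-06). AT3G02480, listed among the LEA genes, read 69.5 and 52.2 on standard medium and 2941 and 1777 on salt. In these genes the salt arrays lay far above the standard arrays. AT3G15670, listed among the LEA genes, was near the floor on standard medium (23.0 and 8.12) and read 285 and 353 on salt, a rise of 4.14 ± 0.57 (SE, limma adjusted p = 4.6e-05). AT3G17520, in the same list, rose by 2.93 ± 0.58 (SE, limma adjusted p = 0.0019), from 18.1 and 45.0 to 299 and 205.

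The dehydrins were bright before salt was added. LTI30 (AT3G50970), a dehydrin induced by cold and abscisic acid, was already at 6790 and 4443 on standard medium and reached 17512 and 21209 on salt, a log2 rise of 1.81 ± 0.17 (SE, limma adjusted p = 3.8e-07). COR47 (AT1G20440), another dehydrin, was at 15206 and 13818 and rose to 19793 and 23763, by 0.58 ± 0.13 (SE, limma adjusted p = 0.0069). The media did not overlap for either gene. The COR47 call was lost without standard replicate 2 (adjusted p = 0.084) and without salt replicate 2 (adjusted p = 0.077). The remaining members, COR15A (AT2G42540) and COR15B (AT2G42530), which protect chloroplast membranes in the cold, were at 1.94 ± 0.91 and 0.82 ± 0.54 (SE) and did not pass the test (limma adjusted p = 0.22 and 0.42). COR15A read 3.39 and 31.0 on standard medium and 39.7 and 84.6 on salt, so the replicates spread widely at these low signals. Outside the list, AtLEA4-1 (AT1G32560) rose by 2.17 ± 0.56 (SE, limma adjusted p = 0.015), from 25.4 and 21.5 to 177 and 80.7, and was lost without standard replicate 1, standard replicate 2 or salt replicate 1 (adjusted p = 0.053, 0.093 and 0.16).

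Several regulators rose with them. Of the 2 tested members of the stress transcription factor list 1 rose, STZ, and of the 5 tested WRKY factors 1 rose, WRKY6. WRKY6, LEP and tny were chosen after their values were seen. PUB19 (AT1G60190), a U-box ubiquitin ligase that restrains abscisic acid and drought responses, read 54.9 and 79.5 on standard medium and 1419 and 1584 on salt. STZ (AT1G27730), a zinc-finger repressor induced by salt and cold, read 131 and 78.0 on standard medium and 552 and 409 on salt. For both, the higher standard array was well below the lower salt array. WRKY6 (AT1G62300), a WRKY factor of senescence and phosphate supply, rose from 441 and 412 to 1144 and 837, by 1.19 ± 0.18 (SE, limma adjusted p = 0.00017). LEP (AT5G13910), an AP2/ERF factor, rose from 431 and 331 to 712 and 1353, by 1.37 ± 0.24 (SE, limma adjusted p = 0.00051). The salt replicates of LEP differed from each other more than salt replicate 1 differed from the standard arrays, yet the media did not overlap. tny (AT5G25810), the TINY protein of the same AP2/ERF family, went the other way, from 1338 and 768 to 264 and 384, a fall of -1.66 ± 0.26 (SE, limma adjusted p = 0.0002).

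Of the 8 tested U-box ligases 2 rose, PUB19 and PUB24 (AT3G11840), and none fell. PUB24 rose by 1.96 ± 0.53 (SE, limma adjusted p = 0.022) and did not pass when standard replicate 1, standard replicate 2 or salt replicate 1 was left out (adjusted p = 0.11, 0.089 and 0.14). Other rising genes of protein breakdown were chosen after their values were seen. SKP2A (AT1G21410), an F-box protein that marks cell cycle factors for destruction, rose from 69.4 and 34.0 to 305 and 268, by 2.45 ± 0.40 (SE, limma adjusted p = 0.00029). ATL8 (AT1G76410), a RING-type ubiquitin ligase, rose by 1.68 ± 0.38 (SE, limma adjusted p = 0.0058), with salt arrays at 145 and 146 and standard arrays at 38.7 and 46.5. NANA (AT3G12700), an aspartic protease of chloroplasts, rose from 1091 and 905 to 3260 and 3340, by 1.73 ± 0.16 (SE, limma adjusted p = 2e-07). GAMMA-VPE (AT4G32940), a cysteine protease that matures proteins in the vacuole, read 512 and 435 on standard medium and 1012 and 1096 on salt. Its rise was 1.15 ± 0.19 (SE, limma adjusted p = 0.00025), and the replicates of each medium lay close together.

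ATG8 proteins coat the membrane of the growing autophagosome, the vesicle that carries cell contents to the vacuole for breakdown. Of the 8 tested autophagy genes, a list set up after values had been seen, 3 rose and none fell, with a median of 0.62. ATG8F (AT4G16520) read 998 and 939 on standard medium and 1411 and 1642 on salt (log2 0.65 ± 0.17, SE, limma adjusted p = 0.015). ATG8E (AT2G45170) was at 0.63 ± 0.17 and ATG8C (AT1G62040) at 0.66 ± 0.19 (SE, limma adjusted p = 0.019 and 0.028). The changes were thus small and alike in size. None of the 3 calls held in every fit that left out 1 array: ATG8F was lost without standard replicate 1, standard replicate 2 or salt replicate 2 (adjusted p = 0.056, 0.12 and 0.11), ATG8E without standard replicate 1 or salt replicate 1 (0.22 and 0.076), and ATG8C without standard replicate 1, standard replicate 2 or salt replicate 1 (0.087, 0.16 and 0.15).

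Some genes that break down methionine and leucine rose as well. MGL (AT1G64660), methionine gamma-lyase, splits methionine and feeds isoleucine synthesis, and read 218 and 180 on standard medium and 606 and 687 on salt (1.68 ± 0.27, SE, limma adjusted p = 0.00021). ARD4 (AT5G43850), an acireductone dioxygenase of the methionine salvage cycle, rose from 249 and 316 to 585 and 643 (1.12 ± 0.19, SE, limma adjusted p = 0.00033). In both genes every salt array was above every standard array. Of the 8 tested genes of methionine and branched-chain amino acid breakdown, a list set up after values had been seen, 5 rose and none fell, with a median of 0.74. Without salt replicate 2 the count was 2.

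The mitochondrial leucine pathway gave the other 4 of those rises. IVD (AT3G45300), isovaleryl-CoA dehydrogenase, rose from 261 and 256 to 411 and 720 (1.06 ± 0.24, SE, limma adjusted p = 0.0054), and MCCA (AT1G03090), the biotin-bearing subunit of methylcrotonyl-CoA carboxylase, from 91.3 and 80.9 to 172 and 403 (1.57 ± 0.37, SE, limma adjusted p = 0.008). Salt replicate 2 was the higher array in both. Without it IVD was at 0.66 (adjusted p = 0.12) and MCCA at 0.96 (adjusted p = 0.16), and MCCA did not pass without standard replicate 2 either (adjusted p = 0.073). ETFALPHA (AT1G50940) and ETFBETA (AT5G43430), subunits of the flavoprotein that takes electrons from such dehydrogenases, rose by 0.82 ± 0.22 and 0.67 ± 0.19 (SE, limma adjusted p = 0.022 and 0.027). ETFALPHA was lost without standard replicate 1 or salt replicate 2 (adjusted p = 0.24 and 0.19), and ETFBETA without standard replicate 2 or salt replicate 1 (adjusted p = 0.23 and 0.19). MCCB (AT4G34030), the partner subunit of MCCA, was at 0.43 ± 0.26 (SE, limma adjusted p = 0.38).

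Further rises were in genes of unlike roles, chosen after their values were seen. UGT87A2 (AT2G30140), a glycosyltransferase linked to flowering time and abiotic stress, rose from 603 and 604 to 2172 and 2280, by 1.88 ± 0.20 (SE, limma adjusted p = 1.8e-06). ARL (AT2G44080), an ARGOS-like protein that promotes cell expansion, rose from 81.7 and 50.2 to 660 and 251, by 2.59 ± 0.39 (SE, limma adjusted p = 0.00011). Its salt replicates differed more than its standard replicates, but both lay above the standard arrays. SRC2 (AT1G09070), a C2-domain protein induced by cold, rose from 1472 and 860 to 3140 and 3358, by 1.52 ± 0.26 (SE, limma adjusted p = 0.00048). NET4B (AT2G30500), an actin-binding protein of the NETWORKED family, rose by 1.26 ± 0.17 (SE, limma adjusted p = 2.9e-05), and SUFE2 (AT1G67810), an activator of sulphur release for iron-sulphur clusters, by 1.37 ± 0.22 (SE, limma adjusted p = 0.00029). Among the 35 tested UDP-glycosyltransferases 3 rose and 2 fell, with a median of 0.12. UGT74B1 (AT1G24100), which completes the core of glucosinolates, was among the falls, from 390 and 395 to 185 and 143 (-1.25 ± 0.24, SE, limma adjusted p = 0.0015).

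Of the genes for chloroplast photosynthesis proteins, 3 rose. PSB27 (AT1G03600), an assembly factor of photosystem II, read 91.1 and 92.3 on standard medium and 262 and 254 on salt (1.45 ± 0.26, SE, limma adjusted p = 0.00069). PSAE-1 (AT4G28750), a subunit of photosystem I, read 31.4 and 37.6 and then 112 and 98.3 (1.5 ± 0.29, SE, limma adjusted p = 0.0013). NdhS (AT4G23890), a subunit of the chloroplast NADH dehydrogenase-like complex, rose by 1.34 ± 0.36 (SE, limma adjusted p = 0.021). The replicates of each medium lay close together for PSB27 and PSAE-1. NdhS was lost without standard replicate 2, salt replicate 1 or salt replicate 2 (adjusted p = 0.25, 0.065 and 0.077), and PSAE-1 in a fit of the 4 cpc try arrays alone. Of the 10 tested photosystem and chloroplast NDH genes, a list set up after values had been seen which includes light-harvesting proteins, these 3 rose and none fell, with a median of 0.53. The listed green tissue markers had no probe set with a single gene, so shoot tissue was not tested for.

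Xyloglucan endotransglucosylases/hydrolases (XTHs) cut and rejoin the xyloglucan that ties cellulose fibres together. Of the 6 tested, 4 fell and none rose, with a median of -1.65, and the count was 4 without any 1 of the cpc try arrays. XTH18 (AT4G30280) read 1362 and 1400 on standard medium and 231 and 258 on salt, a 5.65-fold difference of the means. XTH21 (AT2G18800) fell from 516 and 379 to 81.4 and 92.5 (-2.30 ± 0.27, SE, limma adjusted p = 5.2e-06), and XTH16 (AT3G23730) read 356 and 410 and then 29.9 and 41.7. XTH19 (AT4G30290), the neighbour of XTH18 in the gene family, fell less, from 1568 and 1717 to 932 and 799 (-0.92 ± 0.17, SE, limma adjusted p = 0.00095). XTH18 and XTH19 are close copies, and how far their probes share transcripts was not tested. XTH33 (AT1G10550) was at -1.0 ± 0.66 (SE, limma adjusted p = 0.42).

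Expansins, which loosen the contacts of wall polymers without cutting them, moved in both directions: of the 12 tested, 2 were called upward and 2 downward, and the median was 0.07. One of the upward calls was EXPA7, which was near the floor in cpc try. It was tested only because the other genotypes were brighter, so it is not read as a rise here. EXPB1 (AT2G20750), a beta-expansin, fell from 618 and 619 to 136 and 214 (-1.84 ± 0.21, SE, limma adjusted p = 3.9e-06). EXPA9 (AT5G02260) rose from 713 and 817 to 1163 and 1724 (0.89 ± 0.17, SE, limma adjusted p = 0.0013). EXLA2 (AT4G38400), an expansin-like protein, read 167 and 253 on standard medium and 96.4 and 2.84 on salt. Its large fall thus came from salt replicate 2: without that array it was at -1.06 (adjusted p = 0.23), and it did not pass without standard replicate 2 either (adjusted p = 0.12). EXLA1 (AT3G45970), of the same subfamily, was at 0.45 ± 0.18 (SE, limma adjusted p = 0.14).

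EXO (AT4G08950), the brassinosteroid-induced EXORDIUM protein of the cell wall, fell from 539 and 480 to 153 and 132 (-1.81 ± 0.30, SE, limma adjusted p = 0.00034). SKU5 (AT4G12420), a membrane-anchored glycoprotein of directional root growth, fell from 1275 and 1316 to 503 and 724 (-1.10 ± 0.19, SE, limma adjusted p = 0.00068). TBL25 (AT1G01430), of the wall-acetylating trichome birefringence-like family, fell by -1.28 ± 0.25 (SE, limma adjusted p = 0.0016), 1 fall among 18 tested members with a median of -0.29. For these 3 genes every salt array was below every standard array. CSLC04 (AT3G28180), a synthase for the backbone of xyloglucan, fell by -1.21 ± 0.29 (SE, limma adjusted p = 0.011) but did not pass without standard replicate 2 or salt replicate 2 (adjusted p = 0.092 and 0.076).

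**Figure D2:**
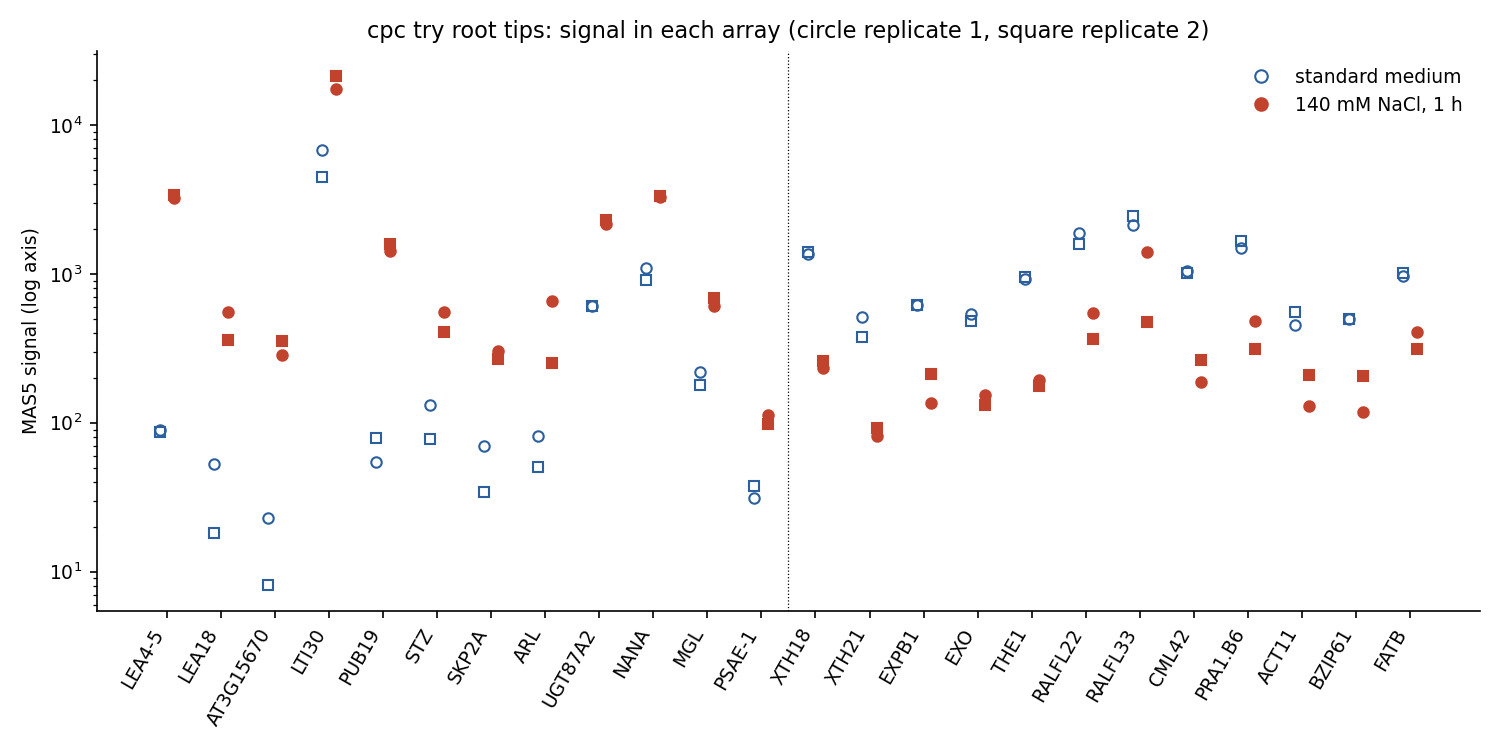
MAS5 signal (log axis) of 24 genes in each of the 4 cpc try arrays, with open blue symbols for standard medium, filled red symbols for NaCl, circles for replicate 1 and squares for replicate 2. Left of the dotted line are 12 genes that rose and right of it 12 that fell, and in each gene the arrays of the media do not overlap.

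RALF peptides make the apoplast alkaline and slow root elongation through receptor kinases of the CrRLK1L family, to which FERONIA and THESEUS1 belong. Of the 7 tested RALF-like peptides 4 fell and none rose, with a median of -0.61. Without standard replicate 1, standard replicate 2 or salt replicate 2 the count was 3. RALFL22 read 1891 and 1574 on standard medium and 544 and 363 on salt (-1.95 ± 0.24, SE, limma adjusted p = 8.7e-06). RALFL27 (AT3G29780) fell from 428 and 528 to 222 and 148 (-1.37 ± 0.23, SE, limma adjusted p = 0.00048). RALFL33 (AT4G15800) fell from 2136 and 2457 to 1390 and 475 (-1.49 ± 0.30, SE, limma adjusted p = 0.0019), with the lower salt reading in replicate 2, and it did not pass in the fit without a trend in the spread. RALFL24 (AT3G23805) fell by -0.61 ± 0.19 (SE, limma adjusted p = 0.047) and was lost without standard replicate 1, standard replicate 2 or salt replicate 2 (adjusted p = 0.098, 0.26 and 0.37).

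THE1 (AT5G54380), the THESEUS1 kinase that senses the state of the wall, fell from 922 and 957 to 193 and 176, by -2.32 ± 0.20 (SE, limma adjusted p = 6.6e-08). FER (AT3G51550), the FERONIA kinase, went from 701 and 825 to 481 and 576, at -0.53 ± 0.17 (SE, limma adjusted p = 0.063). The media did not overlap in either gene, and only THE1 passed the test. FER passed after centring each array on its median. Whether the change of THE1 differed from that of FER was not tested.

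Single members of calcium-binding, membrane traffic and cytoskeleton families fell. CML42 (AT4G20780), a calmodulin-like protein, was the 1 of 6 tested of its family that was called, and fell from 1039 and 1009 to 187 and 265 (-2.18 ± 0.20, SE, limma adjusted p = 2.1e-07). IQD19 (AT4G14750), a calmodulin-binding protein, was the 1 of 9 tested IQ-domain proteins called, and fell from 128 and 98.6 to 28.0 and 7.98 (-2.57 ± 0.50, SE, limma adjusted p = 0.0015). In both, every salt array was far below every standard array. Of the 8 tested prenylated Rab acceptors, which sit in the membranes of the secretory route, 2 fell. PRA1.B6 (AT5G07110) fell from 1499 and 1647 to 484 and 311 (-2.0 ± 0.19, SE, limma adjusted p = 2.7e-07), and PRA1.B4 (AT2G38360) from 1170 and 1362 to 620 and 630 (-1.01 ± 0.19, SE, limma adjusted p = 0.0015). ACT11 (AT3G12110), an actin known mainly from reproductive tissue, fell from 455 and 557 to 129 and 208 (-1.60 ± 0.27, SE, limma adjusted p = 0.00049). Among the 7 tested tubulins 1 fell, TUB5 (AT1G20010), by -0.62 ± 0.16 (SE, limma adjusted p = 0.018), and it was lost without standard replicate 1, standard replicate 2 or salt replicate 1 (adjusted p = 0.12, 0.065 and 0.17).

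Several transcription factors and chromatin proteins fell. Of the 5 tested bZIP factors 1 fell and 2 rose. BZIP61 (AT3G58120) fell from 500 and 495 to 119 and 206 (-1.65 ± 0.28, SE, limma adjusted p = 0.00038). GT2 (AT1G76890), a trihelix factor, fell from 224 and 217 to 83.3 and 57.5 (-1.61 ± 0.27, SE, limma adjusted p = 0.00036), and ULT1 (AT4G28190), a SAND-domain protein that limits the size of shoot meristems, from 687 and 749 to 288 and 275 (-1.34 ± 0.21, SE, limma adjusted p = 0.00021). BZIP28 (AT3G10800) and BZIP60 (AT1G42990), membrane-bound factors of the response to unfolded proteins, rose by 0.65 ± 0.19 and 0.75 ± 0.20 (SE, limma adjusted p = 0.031 and 0.02). Both were lost without standard replicate 1 (adjusted p = 0.11 and 0.2) or salt replicate 1 (adjusted p = 0.17 and 0.22), and BZIP28 also without standard replicate 2 (adjusted p = 0.14). In the 3 falling genes the standard replicates lay close together and above both salt arrays. Only 9 of the 29 listed core histones were tested, among them the H2B genes HTB1, HTB2, HTB4 and HTB11, so they do not stand for all core histones. Of these 9, 2 fell and none rose, with a median of -0.26, and 1 to 3 fell when 1 cpc try array was left out. HTB1 (AT1G07790), a histone H2B, fell from 1855 and 2032 to 1197 and 744 (-1.04 ± 0.18, SE, limma adjusted p = 0.00066). AT2G28720, listed among the histones, fell by -0.92 ± 0.25 (SE, limma adjusted p = 0.02) and was lost without standard replicate 1, standard replicate 2 or salt replicate 2 (adjusted p = 0.083, 0.12 and 0.27).

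Metabolic genes that fell included FATB (AT1G08510), the thioesterase that releases saturated fatty acids in plastids, from 960 and 1018 to 404 and 311 (-1.47 ± 0.18, SE, limma adjusted p = 1.3e-05). ASPGB1 (AT3G16150), an asparaginase, fell from 503 and 549 to 166 and 138 (-1.77 ± 0.33, SE, limma adjusted p = 0.0011). PANB2 (AT3G61530), which makes ketopantoate for vitamin B5, read 57.4 and 50.8 on standard medium and 3.28 and 9.92 on salt (-2.51 ± 0.54, SE, limma adjusted p = 0.0041). Every salt array was below every standard array in these 3 genes, and the salt signals of PANB2 were near the floor of the table. Glutathione S-transferases, which attach glutathione to toxic compounds, had 3 falls and no rise among 13 tested, with a median of 0.20, and without standard replicate 2 the count of falls was 1. One of the 3, GSTU28, had a cpc try mean under the filter threshold. GSTU27 (AT3G43800) fell from 1612 and 1455 to 689 and 482 (-1.40 ± 0.24, SE, limma adjusted p = 0.00047). Methionine sulphoxide reductases of the B type, which repair oxidised methionine, split, with 1 rise and 2 falls among 4 tested. MSRB9 (AT4G21850) fell from 5097 and 5908 to 2932 and 2095 (-1.15 ± 0.15, SE, limma adjusted p = 2.5e-05), and MSRB3 (AT4G04800) rose from 113 and 124 to 288 and 224 (1.07 ± 0.23, SE, limma adjusted p = 0.0035).

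**Figure D3:**
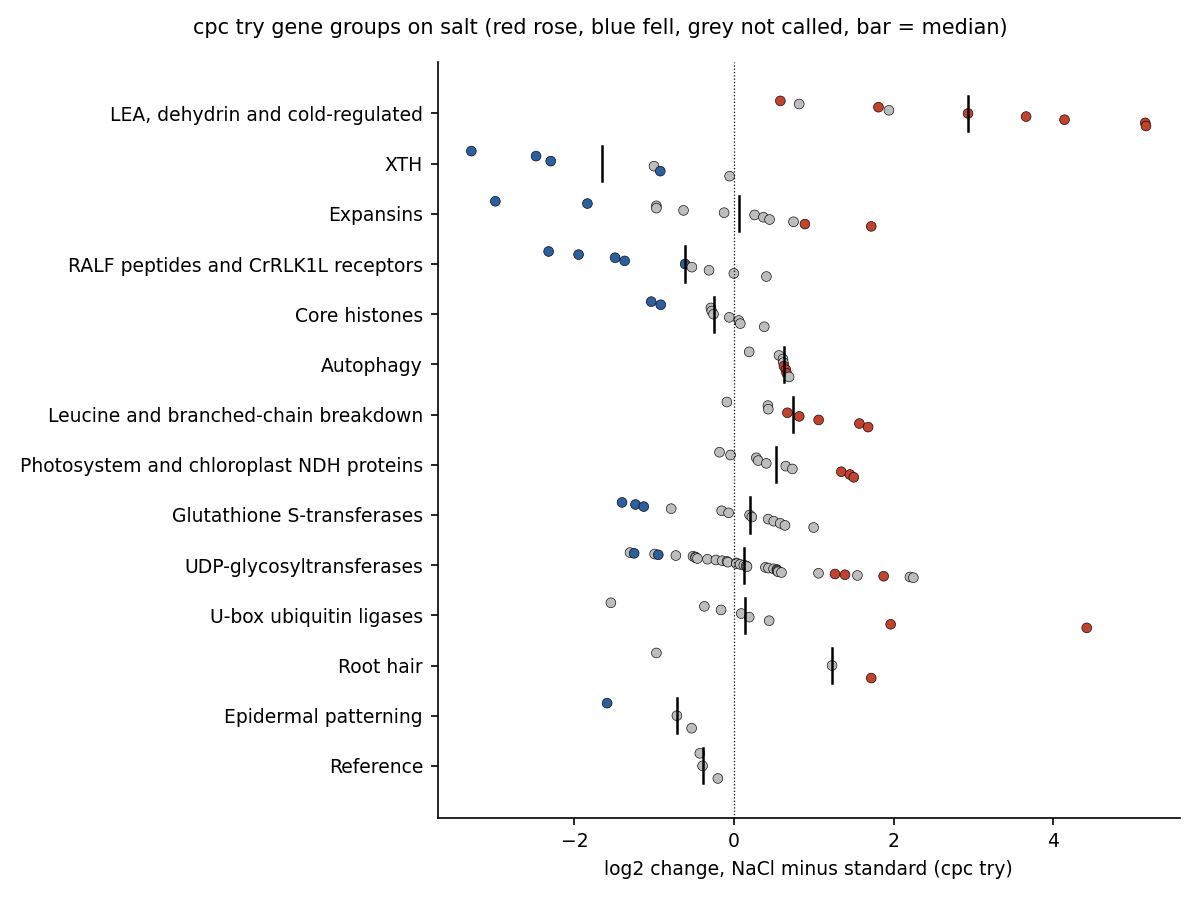
Log2 change on NaCl in cpc try (horizontal axis) of each tested member of 14 gene groups (vertical axis), red for genes that rose, blue for genes that fell and grey for genes not called by limma, with a bar at each group's median. LEA genes lie on the right with a median of 2.93 and XTHs on the left with a median of -1.65, while the median of expansins is 0.07.

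Few genes of root hairs and of epidermal patterning had a probe set with a single gene. ATMYC1 (AT4G00480), a bHLH protein that works with the patterning MYBs, read 24.4 and 38.0 on standard medium and 4.24 and 11.8 on salt, and the wild type arrays lay between 261 and 318 on both media. Its mean log2 value over the cpc try arrays, 4.32, was under the filter threshold of 4.40, so it was tested only because the other genotypes were bright, and its values are given here as a description. The same holds for AT1G30870 (3.21) and EXPA7 (4.11) among the root hair genes. JKD (AT5G03150), a zinc-finger protein that steers patterning from the cortex, was at -0.53 ± 0.40 (SE, limma adjusted p = 0.49). EXPA7 (AT1G12560), an expansin of root hairs, read 5.84 and 4.96 on standard medium and 41.7 and 17.3 on salt, against 794 to 1171 in the wild type arrays, so 3 of its 4 cpc try signals lay under the 25th percentile of 21.7.

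The other root hair genes also stayed low. EXPA18 (AT1G62980) read 34.0 and 34.0 on standard medium and 32.9 and 6.10 on salt, and was at -0.97 ± 0.41 (SE, limma adjusted p = 0.16). Without salt replicate 1 it passed, at -1.90 (adjusted p = 0.0014). AT1G30870, listed among the root hair genes, read 1.90 and 2.03 and then 2.42 and 26.9, against 1281 to 2210 in the wild type arrays, so salt replicate 2 alone was above the floor. In EXPA18 salt replicate 2 was the low array and in AT1G30870 the high one.

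The endodermis and cortex list had 2 members with a single gene. AT1G09750, a cortex marker, fell from 647 and 619 to 335 and 378 (-0.82 ± 0.25, SE, limma adjusted p = 0.044), and was lost without any 1 of the 4 arrays (adjusted p from 0.083 to 0.18). AT1G62500, listed as the cortex marker CO2, read 138 and 123 and then 95.8 and 113, at -0.31 ± 0.41 (SE, limma adjusted p = 0.74). The listed markers of the stele, root cap and root meristem had no probe set with a single gene, and their part in the falls was not tested. Of the 3 reference genes none was called by limma: GAPC2 (AT1G13440) was at -0.39 ± 0.13, PEX4 (AT5G25760) at -0.43 ± 0.20 and AT4G34270 at -0.20 ± 0.19 (SE, limma adjusted p = 0.073, 0.22 and 0.62). GAPC2 passed without salt replicate 2, at -0.60 (adjusted p = 0.0086). At an unadjusted p under 0.05 the count was 2.

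The same probe sets were read in the other genotypes. Their arrays share the estimate of spread and the filter with cpc try, so the counts are a description. Of the 925 rises in cpc try, 821 (88.8%) had a positive log2 change in all of the other 3 genotypes, 416 were called upward in all 3, and 238 were called in none of them. Of the 714 falls, 618 (86.6%) were negative in all 3, 221 were called downward in all 3, and 263 were called in none. The share of all tested probe sets with the same sign in all 3 was not counted. How far the 88.8% and 86.6% exceed it is therefore not known. In the other direction, 496 probe sets rose in all of the other 3 genotypes. Of these 494 were positive in cpc try and 416 were called, with a median log2 change of 1.34 in cpc try against 1.47 in wild type, 1.70 in wer myb23 and 1.56 in scm. Of the 299 that fell in the other 3, 292 were negative in cpc try and 221 were called, with medians of -1.08 in cpc try against -1.21, -1.35 and -1.20. For comparison, rises and falls made up 4.99% and 3.89% of all tested probe sets in wild type, 5.98% and 4.99% in wer myb23, and 4.72% and 3.12% in scm. A call in cpc try and none elsewhere does not show a difference between genotypes, which was tested directly.

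That test compared the log2 salt response of cpc try with that of wild type, and with the mean of the other 3 genotypes. Against wild type, 3 of 17059 probe sets (0.0176%) passed, 1 higher and 2 lower in cpc try, although 1480 had an unadjusted p under 0.05. Against the mean of the other 3, 24 passed (0.141%), 12 higher and 12 lower, with 1455 at an unadjusted p under 0.05. Of the 24, 5 had a mean over the cpc try arrays under the filter threshold and were tested only because the other genotypes were brighter. With that threshold also asked of the cpc try arrays, a setting chosen after seeing the data, 18 passed against the mean of the other 3 and 1 against wild type. Of the 24, 17 were also called in cpc try itself, and in 10 the response of cpc try and the mean response of the others had opposite signs. With 1 gene in the annotation, 15 of the 24 could be named, 8 with a lower and 7 with a higher response in cpc try. Without the trend in the spread the count against the mean of the other 3 was 1, and none of the 15 named genes passed. Leaving out 1 array gave 5 to 90, with 5 without scm standard replicate 2 and 90 without cpc try salt replicate 1.

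**Figure D4:**
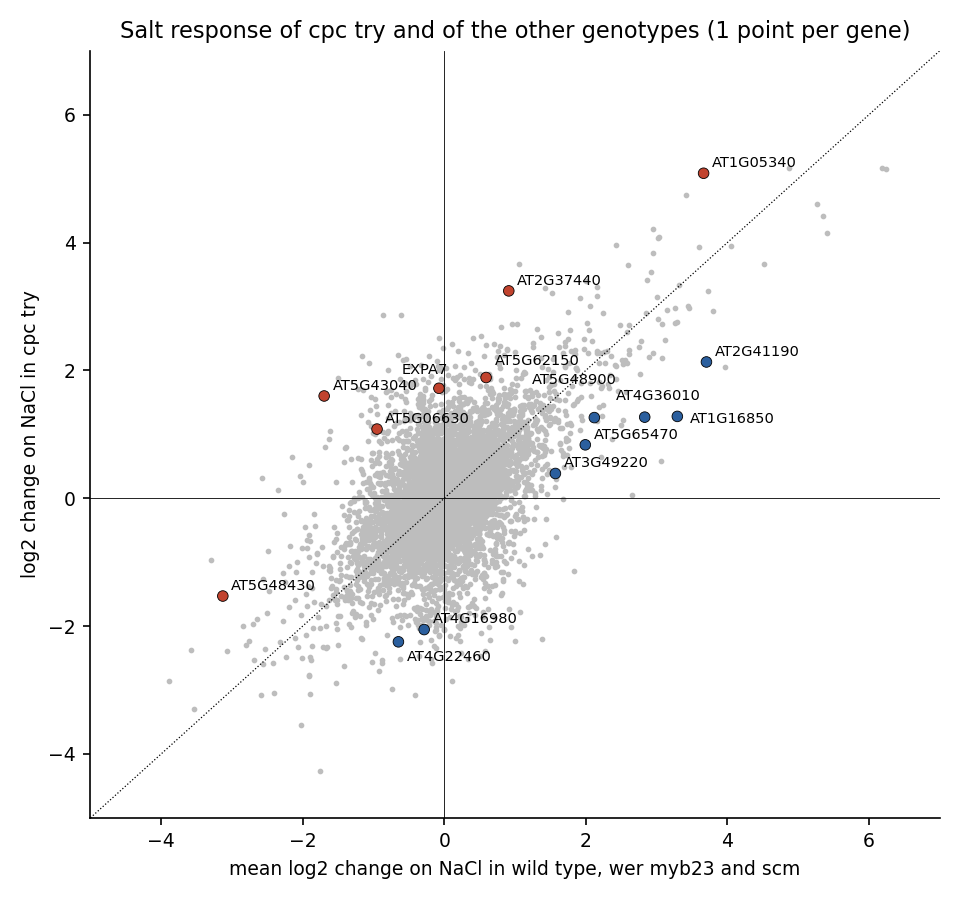
Log2 change on NaCl in cpc try (vertical axis) against the mean log2 change in wild type, wer myb23 and scm (horizontal axis), 1 grey point for each of 9491 genes, with a dotted line where they are equal. The 15 genes whose response differed by limma are named, 7 above the line in red and 8 below it in blue, and EXPA7 and AT4G22460 among them were near the floor in cpc try.

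Most of the genes with a lower response were induced in cpc try too, but from a higher level on standard medium than in wild type. The standard arrays of both genotypes enter the tested difference. Picking genes by a lower response thus favours this order beforehand, and it is given as a description only. AT1G16850 read 194 and 219 on standard medium and 536 and 479 on salt in cpc try, and 75.4, 82.9, 918 and 1240 in the wild type in the same order. The cpc try arrays were thus above wild type on standard medium and below it on salt. The difference of the responses was -2.01 ± 0.26 against the mean of the other 3 (SE, limma adjusted p = 0.0012) and -2.41 against wild type (limma adjusted p = 0.0052), and the difference from the other 3 passed without any 1 of the 16 arrays. Without the trend in the spread the difference from wild type had an adjusted p of 0.13. AT2G41190 read 493 and 436 and then 1910 and 2189 in cpc try, against 149 and 116 and then 1367 and 1643 in wild type. Here the cpc try arrays were above wild type on both media. The difference was -1.57 ± 0.20 (SE, limma adjusted p = 0.0012), and it too passed without any 1 of the 16 arrays.

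The same order, which the selection favours, held on standard medium for AT4G36010, AT3G49220, AT5G65470 and AT5G48900. AT5G48900 read 1361 and 1371 on standard medium in cpc try against 783 and 722 in wild type, and 3596 and 2992 on salt against 2743 and 3218. AT5G65470 read 698 and 699 against 358 and 309 on standard medium, and 1422 and 1099 against 1528 and 1073 on salt. In each of these 4 genes both standard arrays of cpc try were above both of wild type, and on salt the genotypes overlapped. Within cpc try the salt response of AT3G49220 was 0.39 and was not called (limma adjusted p = 0.25). The differences of response were -1.56 ± 0.27, -1.18 ± 0.22, -1.16 ± 0.21 and -0.86 ± 0.16 (SE, limma adjusted p from 0.026 to 0.031, in the order named). They passed in 11, 6, 7 and 4 of the 16 fits that left out 1 array.

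AT4G16980 fell in cpc try and was not called in wild type. It read 437 and 457 on standard medium and 103 and 105 on salt in cpc try, against 274 and 154 and then 170 and 207 in wild type. AT4G22460 read 33.8 and 38.0 and then 7.45 and 2.04, against 1007 and 820 and then 649 and 521. AT4G16980 was thus above wild type on standard medium and below it on salt, whereas AT4G22460 was far below wild type on both. The cpc try mean log2 of AT4G22460, 4.20, was under the filter threshold, so its difference between genotypes is not read here. The difference of response of AT4G16980 was -1.77 ± 0.30 (SE, limma adjusted p = 0.023) and passed in 13 of the 16 fits that left out 1 array.

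Most of the genes with a higher response were at low levels in cpc try on standard medium. A low standard reading in cpc try itself raises the tested difference, so the selection favours such levels and they are a description only. EXPA7 was among the called genes, but its cpc try mean was under the filter threshold, so its difference is not read here. AT5G06630 read 50.2 and 78.6 and then 137 and 138 in cpc try, against 891 and 1236 and then 645 and 346 in wild type, a difference of 2.03 ± 0.32 (SE, limma adjusted p = 0.014). AT2G37440 read 3.07 and 7.50 and then 69.5 and 97.2, against 80.6 and 116 and then 143 and 164, a difference of 2.33 ± 0.45 (SE, limma adjusted p = 0.039). In all 3 genes, every cpc try array was below every wild type array of the same medium. The salt response of AT5G06630 within cpc try, 1.08 (limma adjusted p = 0.016), did not pass without standard replicate 1, salt replicate 1 or salt replicate 2 (adjusted p = 0.2, 0.054 and 0.063). Its probe set is of the type that can bind transcripts of related genes. AT5G43040 read 1.82 and 35.1 and then 43.6 and 40.5 in cpc try, and its difference of 3.3 ± 0.65 (SE, limma adjusted p = 0.044) passed in 2 of the 16 fits that left out 1 array and not with the filter threshold also asked of the cpc try arrays (adjusted p = 0.052). AT5G06630 and AT2G37440 passed in 15 and 5 of the 16.

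The remaining higher responses were in brighter genes. AT1G05340 read 78.4 and 50.6 and then 2034 and 2543 in cpc try, against 757 and 625 and then 6428 and 10271 in wild type, a difference of 1.42 ± 0.26 (SE, limma adjusted p = 0.026). Its induction was steeper in cpc try but its level lower on both media. AT5G62150 read 319 and 429 and then 1624 and 1177, against 694 and 757 and then 1046 and 866, a difference of 1.30 ± 0.24 (SE, limma adjusted p = 0.026), so that cpc try was below wild type on standard medium and above it on salt. AT5G48430 fell in all 4 genotypes, from 448 and 513 to 165 and 162 in cpc try and from 817 and 1290 to 195 and 137 in wild type, a difference of 1.60 ± 0.28 (SE, limma adjusted p = 0.026). These 3 passed in 10, 8 and 10 of the 16 fits that left out 1 array.

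**Figure D5:**
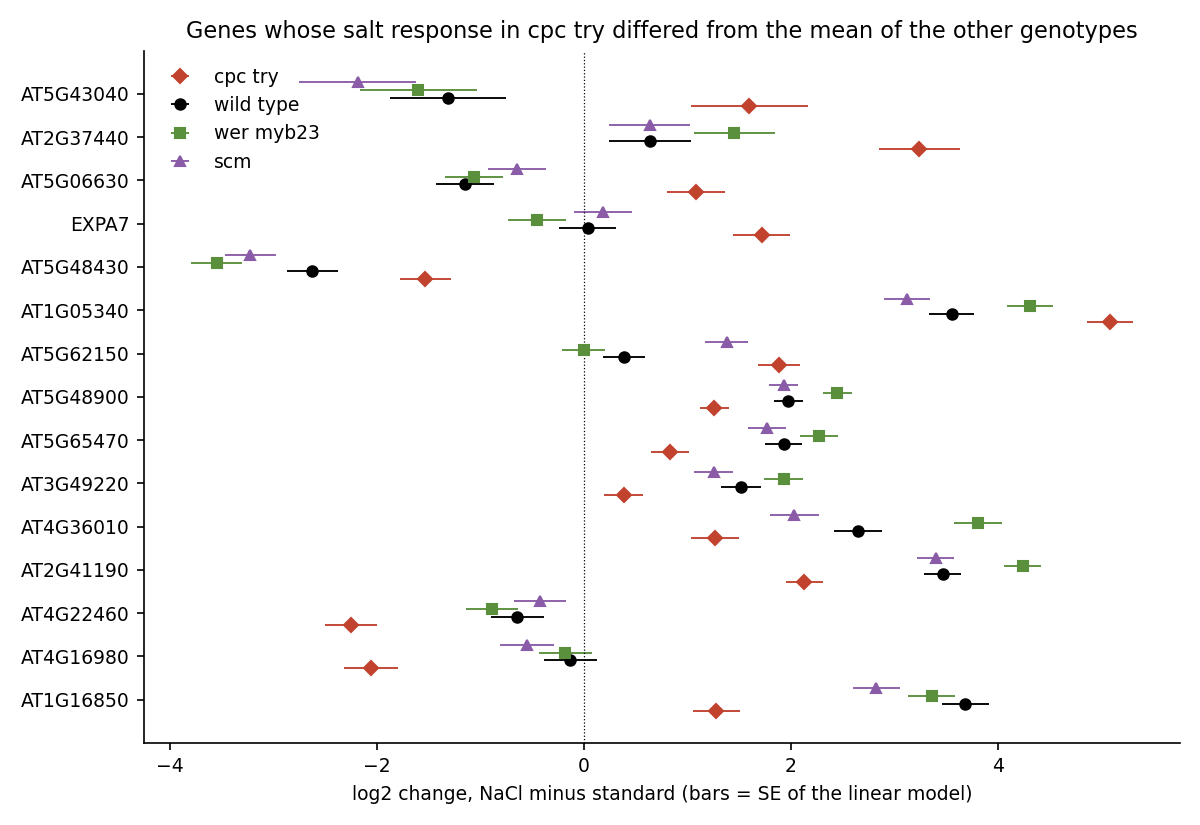
Log2 change on NaCl (horizontal axis) of the 15 named genes in cpc try (red), wild type (black), wer myb23 (green) and scm (purple), with the SE of the linear model as bars. The cpc try point lies to one side of the points of the other 3 genotypes in all 15 genes. The genes were picked for this difference, so their position adds no support. EXPA7 and AT4G22460 among them were near the floor in cpc try.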

How the data were processed

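Root tips of 4 genotypes on 2 media were hybridised to Affymetrix ATH1 arrays, 2 arrays per group. The authors deposited MAS5 signal intensity values, per the submitters' processing notes, and the version of MAS5 was not given in the sources used here. Every array had a 2% trimmed mean near 250.03, so the intensity values were already scaled to a common level by the authors' deposited processing. Array number limits the precision. The labels name the 2 replicates per group as biological.

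Each signal was raised by 4.10, the 10th percentile of all deposited signals, before log2 was taken. Probe sets with a mean log2 value under the 25th percentile were left out, and fold changes of dim genes are understated on this scale. A linear model with 8 group means over all 16 arrays was fitted with limma 3.58.1 in R 4.3.3 (empirical Bayes with a trend, 8 residual degrees of freedom), and p-values were adjusted over all 17059 probe sets by the Benjamini-Hochberg method. Tested on simulated data for the cpc try salt response over 17059 probe sets, the steps recovered 15, 29, 40 and 44 of 50 probe sets changed by a log2 of 1, 2, 3 and 4. Alternatives were the pseudocount, the filter, the normalization, the trend, the arrays in the fit, a replicate block and leaving out each array.

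Gene names came from the platform annotation, and 13436 of 13513 probe sets with 1 gene matched RefSeq. Each gene was read from its brightest tested probe set. Chosen by rule were the 12 largest rises and falls, the 8 largest differences of response each way, and up to 4 called members of each list (up to 2 of the brightest where none was called), with arrays that do not overlap, plus TRY and EXPA7. Not all of these are printed. Several of the largest rises and falls are left out, so the genes described are not the full set of strongest responses. Other named genes were chosen after their values were seen. The members and lists were chosen with earlier results of these data known. Same-numbered arrays of the media did not deviate together in cpc try (r = 0.019), so the numbers were not taken as pairs. Promoter sequences were not used here.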

Additional observations from a re-analysis of the deposited data

Results flagged for a closer look

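The salt response of cpc try differed from the mean of the other 3 genotypes, by a test of the difference itself in limma, in 15 named genes. The log2 difference was negative for AT1G16850 (-2.01), AT4G16980 (-1.77), AT4G22460 (-1.60), AT2G41190 (-1.57), AT4G36010 (-1.56), AT3G49220 (-1.18), AT5G65470 (-1.16) and AT5G48900 (-0.86). It was positive for AT5G43040 (3.3), AT2G37440 (2.33), AT5G06630 (2.03), EXPA7 (1.80), AT5G48430 (1.60), AT1G05340 (1.42) and AT5G62150 (1.30). Against wild type alone the difference passed for AT1G16850, at -2.41. None of the 15 passed against the mean of the other 3 without the trend in the spread, and the difference of AT1G16850 from wild type was lost there too (adjusted p = 0.13). EXPA7 and AT4G22460 had cpc try means under the filter threshold and were tested only because the other genotypes were brighter, so their differences carry no reading.

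A control probe set outside the comparisons also separated the media. The 25S ribosomal RNA signal was 2.14 times as high on salt as on standard medium in cpc try. This was not particular to cpc try. In wild type it read 4421 and 4746 on standard medium and 10298.5 and 8606 on salt. In wer myb23 it read 2788 and 2512 and then 9740 and 8903. The media overlapped in scm, at 2012 and 5229 and then 5123 and 6204.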

How the results depend on the processing

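The cpc try salt response gave 1639 calls, and counts stayed within 1.5 times of this under both other pseudocounts, both other filters, median centring and quantile normalization. For the results named cpc try salt response, probe sets higher and cpc try salt response, probe sets lower, the main counts were 925 and 714. Without a trend in the spread the response gave 1079 calls, with 445 downward. With only the cpc try arrays it gave 886, with 544 upward and 342 downward. Of 143 called genes followed through these settings, 38 lost the call without the trend and 48 with only the cpc try arrays. Not all of these losses are given beside the gene. Leaving out 1 array gave 924 to 1541 calls, 600 to 753 upward and 324 to 788 downward. The lowest counts were without standard replicate 2, and falls numbered 432 without standard replicate 1. The difference from wild type (3 calls) gave 1 with a pseudocount of 32, with quantile normalization or with the cpc try and wild type arrays alone, and with the filter threshold also asked of the cpc try arrays (chosen after seeing the data) also 1. It gave 1 to 41 when 1 array was left out (1 without cpc try standard replicate 1, 41 without wild type salt replicate 1). The difference from the mean of the other 3 (24 calls) gave 1 without a trend and 5 to 90 when 1 array was left out. With a replicate block the salt response gave 1680 calls and the differences 6 and 40, although the numbers do not pair the arrays. Leaving out arrays leaves fewer samples, and the cause of the other changes was not tested. Of 1973 values for 143 called genes under these settings, 1705 kept the call, 268 lost it and 0 changed sign. For the 15 genes of the difference, 245 of 372 values kept the call. The lists set by locus held 20 called genes, also with the mean over a gene's probe sets. Signals near the floor limit the precision of dim genes such as PANB2, EXPA7 and ATMYC1.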
